A study of Saccharomyces cerevisiae with 7 samples.

Results

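The genes described are those for the proteins of the cytosolic ribosome of Saccharomyces cerevisiae, followed across chemostat cultures grown with glucose alone, with added galacturonic acid or with a small amount of galactose. They were chosen by name, as genes whose symbol on the array platform is RPL or RPS with a number, or RPP0, RPP1 or RPP2, with or without A or B, and which have a probe set listed for that gene alone. The pattern found 81 genes among 5656 with such a probe set. One of them, RPP1, encodes a subunit of the RNA-processing enzymes RNase P and RNase MRP and is no ribosomal protein. It was left out and is given separately, which leaves 80 genes, 47 of the large subunit and 33 of the small subunit. The choice used names and the mean level over all arrays, those with galactose included, and no test of a difference between groups.

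All arrays hold RNA of strain CEN.PK113-7D, a haploid laboratory strain, from aerobic chemostats limited by glucose, in which medium with 7.5 g/l glucose was fed at a dilution rate of 0.1 per hour, at pH 3.5 and 30 °C. The control group has 3 arrays of cultures without a further sugar or acid. The galacturonic acid group has 2 arrays of cultures that also received 10 g/l galacturonic acid, a sugar acid of pectin. The galactose group has 2 arrays of cultures that also received 0.23 g/l galactose. In 1 label field these 2 arrays are given as galacturonic acid instead, but their titles, descriptions and treatment fields all say galactose, and they were grouped so. Nothing in the labels says how the arrays relate to separate cultures, so p-values measure the spread between these arrays, which may be technical.

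A cytosolic ribosome holds one copy of most of these proteins. Most of them are encoded in yeast by a pair of nearly identical genes, A and B. The genes are transcribed together under the factors Rap1, Fhl1 and Ifh1 and the TOR and protein kinase A pathways, and their mRNA level is known to follow the growth rate. In a chemostat at steady state the growth rate is set by the dilution rate, which was the same in all 3 groups. An array gives a level relative to the other RNA on it, so fewer cells of a kind and less RNA per cell cannot be told apart.

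The platform covers the family in part. A gene table lists 137 ribosomal protein genes, of which 80 have a probe set of their own, 54 occur only in probe sets listed for several genes and 3 have no listed probe set. Both copies are present for 31 paralog pairs, which make up 62 of the 80 genes, and 18 genes carry no A or B. Of the chosen probe sets, 30 carry one of the suffixes that the manufacturer uses where probes are shared with related transcripts or the rules of probe choice were relaxed. Paralogs may cross-hybridise, and values of single copies are uncertain. All 80 genes lay above the floor of 12, the intensity to which lower values were raised, on every array.

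Both galactose arrays stand apart in RNA integrity, the second of them by far the most. The ratio of 3′ to 5′ signal for the actin transcript ACT1, a measure of RNA integrity, was 1.07 to 1.34 on 5 arrays, those without galactose. It was 19.8 on the first galactose array and 306 on the second. The same ratio for SPT15, which encodes the TATA-binding protein, was 1.66 to 2.76 on 6 arrays and 124 on galactose array 2. Pearson's r between arrays over the 80 genes was 0.81 to 0.90 among controls, 0.95 for the pair with galacturonic acid and 0.585 for the pair with galactose. The main galactose results are therefore also given without galactose array 2, a comparison that still rests on an array with a raised ACT1 ratio. The listed marker genes of mating type a, the strain's own, had a median log2 difference of 2.15 between galacturonic acid and control. Of these 4 of 7 passed the test, all higher, against 0.881% of all genes higher. Between galactose and control their median was 0.95, and 2 of 7 passed, both higher, against 4.75% of all genes higher. Without galactose array 2 that median was 1.47. MF(ALPHA)1, a pheromone gene of the opposite type, read 18.7, 42.8 and 37.9 in controls, 912 and 845 with galacturonic acid and 142 and 11.9 with galactose. The 3 tested genes of that type had log2 differences from 0.22 to 4.82 between galacturonic acid and control. Of them 1 passed, against 2.32% of all genes. The part of these shifts in the results below was not tested.

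With galacturonic acid, none of the 80 ribosomal protein genes differed from the controls by the test. The fit by limma's moderated test over 5220 genes, with Benjamini-Hochberg adjustment, called 0 of 80 at an adjusted p under 0.05, against 2.32% of all genes tested (0.881% higher and 1.44% lower), and the smallest adjusted p was 0.498. At an unadjusted p under 0.05 the count was also 0 of 80, against 12.5% of all genes (5.69% higher and 6.78% lower). The median log2 difference over the family was -0.0040, beside -0.012 over all genes tested. Of the 80 genes, 40 lay above the controls and 40 below. The middle part of the family, between its quartiles, ran from -0.24 to 0.17, beside -0.35 to 0.34 for all genes. The log2 difference exceeded 1 in size for 1 of 80 genes, against 9.16% of all genes, and 0.5 for 6 of 80, against 33.2%.

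The fit over 7 arrays shares 1 estimate of spread, to which the galactose pair contributes. In that fit the 95% interval of the difference had a median half-width of 0.79 on the log2 scale, and it stayed within 1 in either direction for 39 of the 80 genes. In the fit to the 5 control and galacturonic acid arrays alone the median half-width was 0.56, and 66 of the 80 intervals stayed within 1. That fit also called 0 of 80 genes, against 4.90% of all genes, with 2 of 80 at an unadjusted p under 0.05, against 23.0%. The 80 genes made up a share of the summed intensity of all 5656 genes with a single-gene probe set. That share was 11.8% ± 0.76 in controls (SD, n = 3), 11.9% ± 0.49 with galacturonic acid (SD, n = 2) and 11.8% ± 1.47 with galactose (SD, n = 2).

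**Figure D1:**
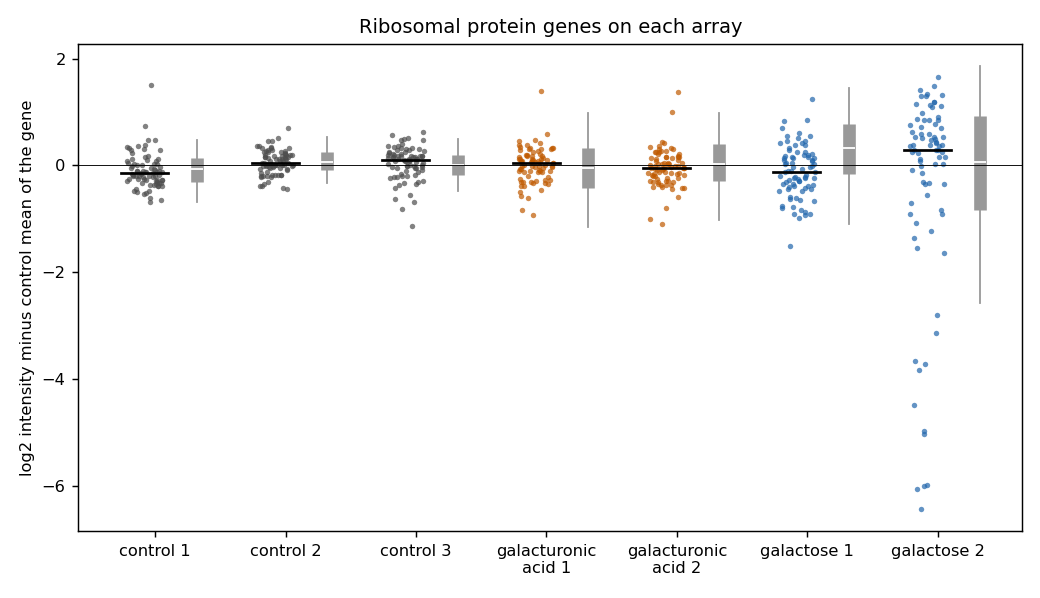
Log2 intensity of each of the 80 ribosomal protein genes on each array, minus the gene's mean over the 3 controls (points, black bar for the median), beside all 5220 genes tested (grey box for the middle 50%, line from the 5th to the 95th percentile). The family stays near 0 on 6 arrays, while 12 genes lie more than 2 below the controls on galactose array 2.

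The 2 subunits gave similar medians. The 47 large-subunit genes had a median log2 difference of -0.01 between galacturonic acid and control, and the 33 small-subunit genes 0.01. RPL30, whose protein binds its own pre-mRNA and blocks its splicing, shows the family's usual picture. It read 1489, 1560 and 1827 in controls, 1751 and 1522 with galacturonic acid and 1398 and 2192 with galactose. The galacturonic acid values lie within the range of the controls, and the log2 difference was 0.01 ± 0.30 (SE, adjusted p = 0.996, limma).

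The 2 groups did not overlap for 15 of 80 genes, 4 higher and 11 lower, against 42.1% of all genes (20.2% higher and 21.9% lower). The 4 with higher values were RPS14A, RPS13, RPS9B and RPL17B, with log2 differences of 0.30, 0.29, 0.27 and 0.22. A second probe set of RPS9B overlapped, with 825, 965 and 1540 in controls and 970 and 993 with galacturonic acid. So did another one of RPL17B, with 1359, 1537 and 1996 in controls and 1882 and 1861 with galacturonic acid. A further one of RPL17B was higher without overlap, with 1862, 1814 and 1407 in controls and 2235 and 2520 with galacturonic acid. The 11 with lower values ran from -0.92 for RPL7B to -0.28 for RPS21A, and none of the 15 passed the test.

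The lowest difference belonged to RPL7B, a large-subunit protein gene. It read 1385, 1865 and 1747 in controls and 928 and 823 with galacturonic acid, so that both acid arrays lay below every control. The log2 difference was -0.92 ± 1.19 (SE, adjusted p = 0.841, limma), with a spread set largely by the galactose arrays, which read 961 and 26.2. In the fit to the 5 other arrays the same difference had an SE of 0.19 and an adjusted p of 0.0528. Its paralog RPL7A read 2721, 3730 and 3074 in controls and 3346 and 1803 with galacturonic acid, groups that overlap.

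The next lowest log2 differences were those of RPL39 (-0.57), RPL15B (-0.53), RPL13B (-0.50) and RPL21B (-0.46), all of the large subunit. RPL13B read 2107, 2630 and 2352 in controls and 1574 and 1758 with galacturonic acid, and in the fit to 5 arrays it had an adjusted p of 0.175. RPL39, whose small protein lines the exit tunnel, read 1566, 2041 and 1834 in controls and 940 and 1569 with galacturonic acid, so 1 acid array lay within the controls and 1 below them.

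The highest difference belonged to RPS7A, whose controls spread widely. RPS7A, a small-subunit protein gene, read 2255, 623 and 361 in controls, 2103 and 2079 with galacturonic acid and 1876 and 721 with galactose. The highest control lay above both acid arrays, and the log2 difference of 1.39 ± 0.73 (SE) had an adjusted p of 0.498 by limma. A second probe set for RPS7A did not show this spread: it read 1048, 1617 and 1258 in controls and 1328 and 1802 with galacturonic acid. On galactose array 2 it read 157, against 721 for the chosen one, and that array counted in the choice of probe set. With array weights, which limma estimates from the spread of these same values, the difference passed (1.71, adjusted p = 0.0223). Control 1 then weighed 0.72, against 2.49 and 1.51 for controls 2 and 3. With the probe sets averaged the difference was 0.83 (adjusted p = 0.680).

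The other genes with the highest log2 differences were RPP2A (0.79), RPS29A (0.43), RPS12 (0.37) and RPS15 (0.36). RPS15, in the head of the small subunit near the decoding centre, read 2536, 2371 and 1389 in controls and 2526 and 2695 with galacturonic acid. RPS12 read 2792, 1767 and 1649 in controls and 2741 and 2473 with galacturonic acid. For RPS12, RPS15 and RPP2A, as for RPS7A, control 1 lay above the other controls, and the groups overlapped.

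**Figure D2:**
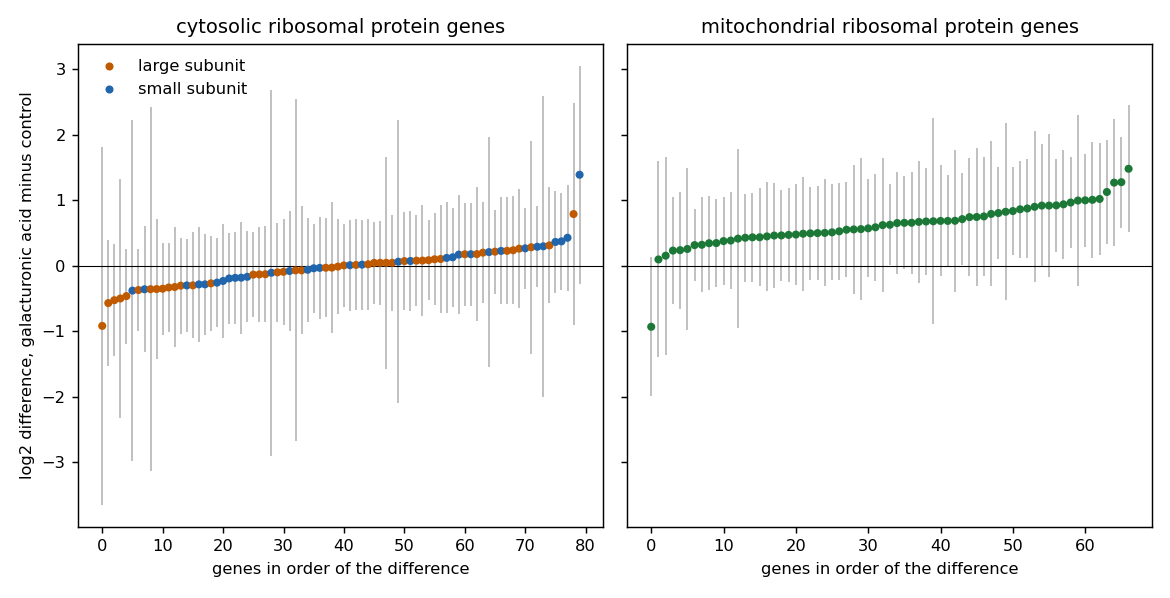
Log2 difference between galacturonic acid and control for each cytosolic (left, 80) and mitochondrial (right, 67) ribosomal protein gene, in order of the difference, with its 95% interval from the fit over 7 arrays (grey line). The cytosolic genes centre on 0 with 40 on each side, while 66 of the 67 mitochondrial ones lie above 0, and none of either set passed the test.

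The stalk of the large subunit recruits elongation factors and is built from RPP0, its scaffold, and the acidic proteins RPP1A, RPP1B, RPP2A and RPP2B. The genes of RPL12 at its base are only in probe sets listed for several genes. The 5 stalk genes had a median log2 difference of 0.08 between galacturonic acid and control, and none passed. RPP0 read 4035, 2162 and 2827 in controls and 3596 and 3273 with galacturonic acid. RPP2A read 1697, 983 and 634 in controls and 1526 and 2033 with galacturonic acid. The acid arrays lay within the controls' range for RPP0, and 1 of them lay above it for RPP2A.

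With galactose all 5 stalk genes lay below the controls without overlap, as did 17.1% of all genes, and none passed the test. RPP0 read 1849 and 1131 with galactose, a log2 difference of -1.01 ± 0.36 (SE, adjusted p = 0.0981, limma). RPP2A read 518 and 77.3, a difference of -2.35 (adjusted p = 0.0759). The others had differences of -0.81 (RPP2B), -0.60 (RPP1B) and -0.34 (RPP1A). For RPP1B the chosen probe set had log2 shifts of -0.87 and -0.34 on galactose arrays 1 and 2. A second one had shifts of -0.21 and -2.66, so the size depends on the probe set. RPP1A, with 1451 and 1448 on the galactose arrays against 1598, 1939 and 2006 in controls, gave nearly the same value on both arrays. Without galactose array 2 the differences of RPP0 and RPP2A were -0.66 (adjusted p = 0.275) and -0.98 (adjusted p = 0.264). Those of RPP2B, RPP1B and RPP1A were then -0.39, -0.87 and -0.34, with adjusted p-values of 0.339, 0.138 and 0.345.

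RPP2A was the only 1 of the 80 genes to pass between galacturonic acid and galactose, against 13.1% of all genes, and it was higher with galacturonic acid, as were 5.23% of all genes, while 7.91% were lower. The log2 difference was 3.14 ± 0.81 (SE, adjusted p = 0.0425, limma), and the 2 groups did not overlap. Without galactose array 2 it was 1.77 and no longer passed (adjusted p = 0.106). Over 22 alternative settings the adjusted p ran from 0.00273 to 0.265 and passed in 9. The call was lost when any 1 array other than galactose array 1 was left out. The RNA end ratios of the galactose arrays given above move with this result, and their part in it was not tested.

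**Figure D3:**
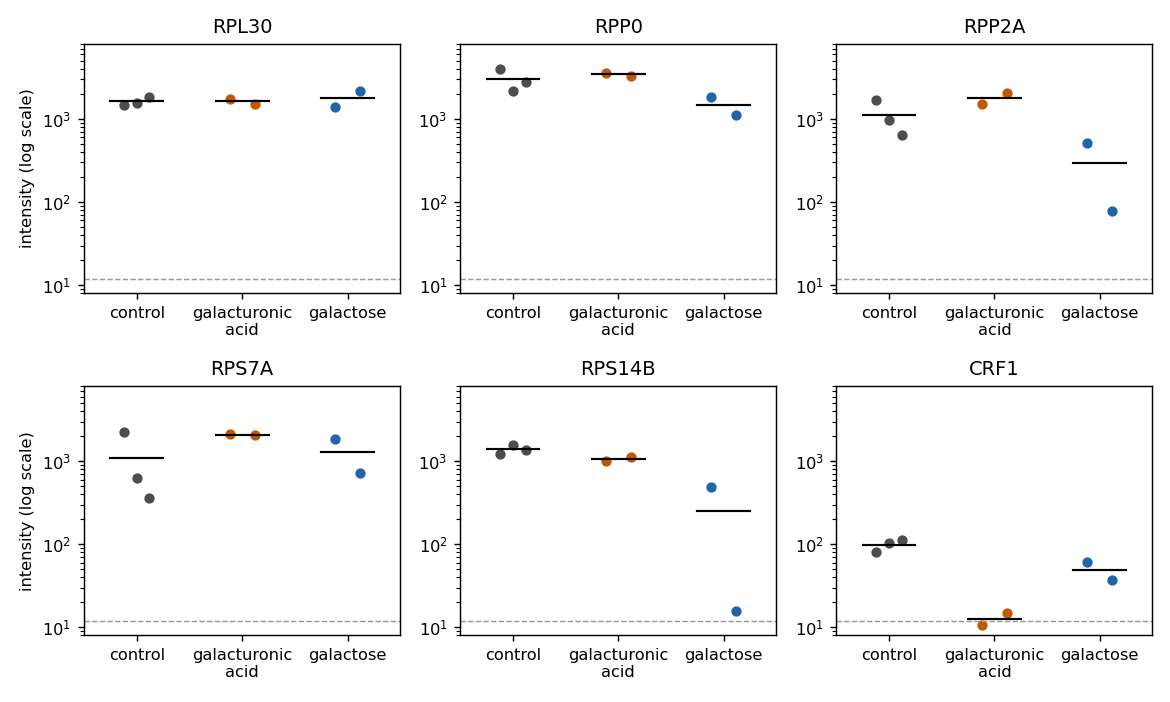
Intensity on each array (points, log axis) and its mean in each group (bar) for 5 ribosomal protein genes and for CRF1, a corepressor of the family; the dashed line is the floor of 12. RPL30 stays level, RPP0, RPP2A and RPS14B are lowest on the galactose arrays, and CRF1 is lowest with galacturonic acid.

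Proteins at the rim of the exit tunnel contact the emerging chain and dock its helpers: Rpl25 binds the signal recognition particle, and Rpl31 is a docking site of the chaperone Zuo1. For the 6 of 12 listed genes with a probe set of their own the median log2 difference between galacturonic acid and control was -0.33, with 1 positive, 5 negative and none past the test. RPL25 read 2130, 2546 and 2529 in controls and 1834 and 1920 with galacturonic acid. RPL31B read 1694, 1838 and 2111 in controls and 1329 and 1579 with galacturonic acid. Both lay below every control, with log2 differences of -0.35 and -0.37 and adjusted p-values of 0.733 and 0.659 by limma. Other probe sets of RPL31B did not show this fall. One read 1117, 902 and 1049 in controls and 1177 and 1731 with galacturonic acid. Another read 1736, 1382 and 1341 in controls and 1769 and 1692 with galacturonic acid.

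RPS2 and RPS3, which help form the entry channel of the mRNA, gave differences of -0.19 and -0.04. RPS31, made as a fusion with ubiquitin and thus also a source of ubiquitin, was the only 1 of the 3 fusion genes with its own probe set. It read 2535, 2018 and 1569 in controls, 1968 and 2580 with galacturonic acid and 1972 and 4278 with galactose, and all 3 groups overlapped. Its difference between galactose and control was 0.54, and -0.02 without galactose array 2.

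Several of these genes are controlled by their own protein product, and 8 of the 10 listed were measured. Their median log2 difference between galacturonic acid and control was -0.0006, 4 above 0 and 4 below. RPS14B, whose pre-mRNA is bound by the Rps14 protein, read 1207, 1589 and 1379 in controls and 1005 and 1123 with galacturonic acid, while RPS14A read 803, 1139 and 1023 in controls and 1219 and 1184 with galacturonic acid. The B copy thus lay below and the A copy above every control, with log2 differences of -0.38 and 0.30 and adjusted p-values of 0.952 and 0.961. RPL22B, whose intron binds Rpl22, read 339, 353 and 562 in controls, 373 and 371 with galacturonic acid and 661 and 733 with galactose. Its difference between galactose and control was 0.78 (adjusted p = 0.128), beside 0.09 for RPL22A, and without galactose array 2 it was 0.70 (adjusted p = 0.215). RPS9A and RPS9B had differences of -0.29 and 0.27 between galacturonic acid and control, neither past the test. The second probe set of RPS9B had log2 shifts of -0.14 and -0.11 on the acid arrays.

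The copies of a pair were compared by their differences between galacturonic acid and control. Over the 31 pairs the log2 differences of A and B lay a median of 0.22 apart, with 7 pairs more than 0.5 apart, 1 more than 1 apart and 20 of 31 on the same side of 0. The 4 pairs farthest apart were RPS7 (1.39 for A and -0.11 for B), RPP2 (0.79 and -0.03), RPL15 (0.26 and -0.53) and RPS14 (0.30 and -0.38). Cross-hybridisation would draw paralogs together, and its part in these distances was not tested.

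**Figure D4:**
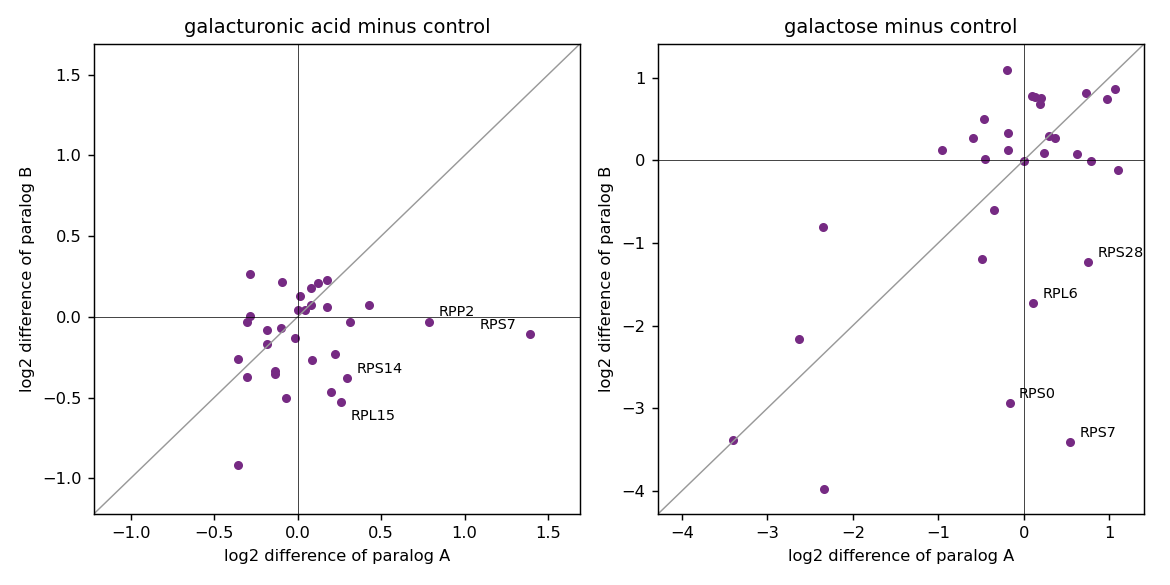
Log2 difference of copy B against that of copy A for 31 paralog pairs, between galacturonic acid and control (left) and between galactose and control (right), with the line of equality. The distance between copies has a median of 0.22 on the left and 0.55 on the right, where the RPS7 and RPS0 pairs lie farthest from the line.

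With galactose none of the 80 genes passed against the controls, and the 2 arrays gave widely different values for many of them. The count was 0 of 80 at an adjusted p under 0.05, against 9.06% of all genes (4.75% higher and 4.31% lower). At an unadjusted p under 0.05 it was 20 of 80, 6 higher and 14 lower, against 34.7% of all genes (21.9% higher and 12.8% lower). The median log2 difference was 0.09, beside 0.22 over all genes tested. It exceeded 1 in size for 17 of 80 genes, against 27.7% of all genes, and 0.5 for 39 of 80, against 59.2%. The smallest adjusted p was 0.0522, for RPL21B, which read 5196, 6023 and 6710 in controls, 4703 and 3950 with galacturonic acid and 3340 and 2026 with galactose. Both galactose arrays lay below all controls, with a log2 difference of -1.19 ± 0.32 (SE), and of -0.83 without galactose array 2 (adjusted p = 0.117). The groups did not overlap for 27 of 80 genes, 12 higher and 15 lower, against 48.6% of all genes (31.5% higher and 17.1% lower).

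The array-by-array values show where the spread lies. On galactose array 1 the shifts from the control mean had an SD of 0.49 over the 80 genes, beside 0.81 over all genes, and 1 gene lay more than 1 below. On galactose array 2 the SD was 1.99, beside 1.37 over all genes. There 17 of 80 genes lay more than 1 below the controls and 12 of 80 more than 2 below, against 21.9% and 8.83% of all genes, and 13 of 80 lay more than 1 above, against 22.6%. All 30 of these genes gave smaller shifts in size on galactose array 1, and 26 of them less than 0.5 of the shift on array 2. RPS14B had a log2 shift of -6.44 on array 2 and -1.51 on array 1.

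The deepest losses on galactose array 2 were in both subunits. After RPS14B, which read 485 and 15.9 on the galactose arrays, came RPS7B, with 675 and 17.2 against 1124, 1456 and 921 in controls. RPL7A read 1812 and 48.9, RPL7B 961 and 26.2, and RPL13A 1165 and 41.8 with galactose. RPS0B, a small-subunit protein gene, read 1867 and 112, against 3495, 3234 and 3814 in controls. In each of these, array 2 lay far below array 1, and array 1 lay below the mean of the controls.

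Without galactose array 2, 1 of 80 genes passed against the controls, against 3.66% of all genes. That gene was RPS14B, with a log2 difference of -1.51 and an adjusted p of 0.0353 by limma. In such a fit the single array left is taken to vary as arrays of the other groups do. With galactose array 2 kept and array 1 left out, 30 of 80 passed, 12 higher and 18 lower, against 41.1% of all genes. The family's median was -0.12 without array 2 and 0.29 without array 1, so its sign turned with the array used.

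**Figure D5:**
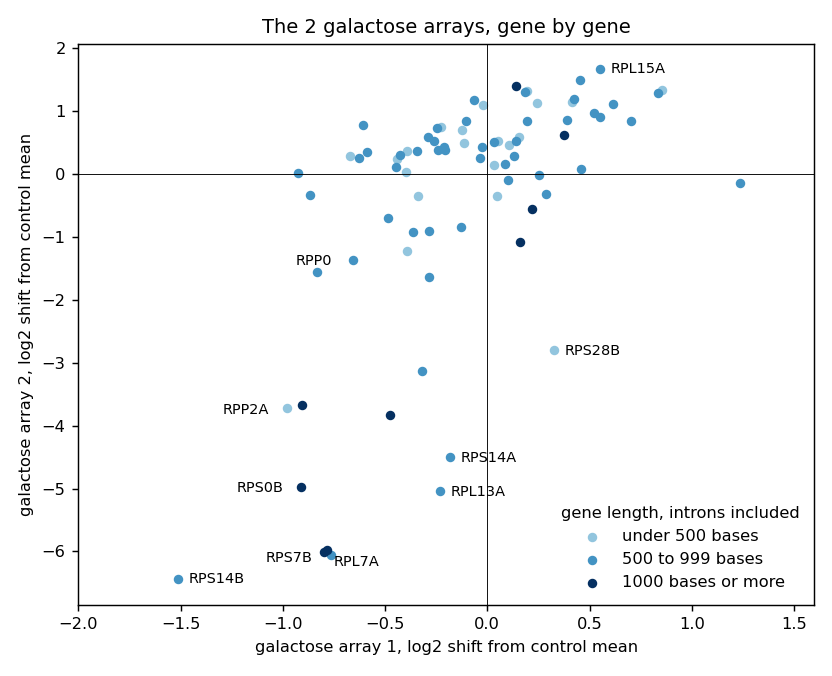
Log2 shift from the control mean on galactose array 2 against that on galactose array 1, for the 80 ribosomal protein genes, shaded by gene length with introns. Array 1 keeps all genes between -1.51 and 1.23, while array 2 spreads from -6.44 to 1.66, and the 9 longest genes have a median of -3.66 there.

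On galactose array 2 the low values went with gene length within the family. The 9 genes of 1000 bases or more, introns included, had a median shift of -3.66, the 50 from 500 up to 1000 bases 0.33 and the 21 shorter ones 0.47. Over all genes tested the medians for the same classes were 0.00, 0.01 and 0.69. Spearman's rho between shift and length over the 80 genes, which share the array, was -0.31 on galactose array 2 and -0.11 on array 1.

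Different probe sets of 1 gene also parted on galactose array 2. Of 20 genes with several probe sets, 7 had shifts more than 2 apart on that array and 0 on any of the other 6. RPL17A, a protein gene of the tunnel rim, read 118 with one probe set and 3669 with another there, against 3693 to 4720 and 1667 to 2446 in controls. The one with 3669 stood for the gene by its mean over all arrays, though the other read higher on every other array. RPS0A read 15.4 and 982 with its probe sets, against 523 to 995 and 1119 to 1710 in controls. The part of RNA integrity in these values was not tested.

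The median over the family was -0.11 between galacturonic acid and galactose, beside -0.24 over all genes. The difference exceeded 1 in size for 15 of 80 genes, against 34.6% of all genes, and 0.5 for 38 of 80, against 63.6%. At an unadjusted p under 0.05 the count was 13 of 80, 8 higher and 5 lower, against 36.4% of all genes (12.9% higher and 23.5% lower). The groups did not overlap for 40 of 80 genes, 18 higher and 22 lower, against 64.4% (23.0% higher and 41.4% lower). This comparison shares its galactose arrays with the preceding one, and without galactose array 2 the count past the adjusted threshold was 0 of 80, against 5.34% of all genes. For the paralogs the distance between copies had a median of 0.505, and of 0.37 without galactose array 2, and in the fit over all arrays the pairs farthest apart were RPS0, RPS7, RPP2 and RPS28. In the RPS28 pair, whose B copy is controlled through decay of its own mRNA, RPS28B read 2419 and 277 with galactose and RPS28A 2086 and 4542. Without galactose array 2 their differences between galacturonic acid and galactose were -0.12 and -0.07.

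The regulators of the family were measured in 22 of 23 cases, and 1 changed with galacturonic acid, against 2.32% of all genes. CRF1, a corepressor that competes with Ifh1 for Fhl1 and so acts against transcription of these genes, read 79.8, 102 and 113 in controls, 10.7 and 14.7 with galacturonic acid and 61.8 and 37.6 with galactose. It fell with galacturonic acid by 2.87 on the log2 scale (SE 0.35, adjusted p = 0.00721, limma), with 1 acid array below the floor of 12 and the other just above it, so the size depends on the floor. Over the alternatives the difference ran from -3.03 to -0.96, the latter with a floor of 50. The call held in 15 of 21 alternative settings, with adjusted p-values from 5.33e-05 to 0.209, and was lost without either acid array, without control 2 or 3, with a floor of 50 and with the replicate block.

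The activators stayed near the controls. RAP1 read 87.3, 57.4 and 76.0 in controls and 59.8 and 71.2 with galacturonic acid, a log2 difference of -0.15. IFH1, the coactivator, differed by 0.34, FHL1 by -0.10, SFP1 by 0.25 and HMO1 by -0.13, and none of them passed. Between galactose and control 1 of the 22 regulators passed, against 9.06% of all genes. It was BCY1, the regulatory subunit of protein kinase A, which fell by 2.05 (adjusted p = 0.0362). Without galactose array 2 its difference was -1.55. Of the 22 regulators 3 passed between galacturonic acid and galactose, all lower with the acid, against 13.1% of all genes (7.91% lower). The median log2 difference of the 22 was -0.06, and -0.37 without galactose array 2, beside -0.24 and -0.37 over all genes. CRF1 differed by -1.86 (adjusted p = 0.0241), and by -2.22 without that array (adjusted p = 0.0291). This call held in 12 of 21 alternatives, with differences from -2.22 to -0.15 and adjusted p-values up to 0.694. Another was YAK1, the kinase that acts on Crf1 (-1.94, adjusted p = 0.0425). YAK1 no longer passed without galactose array 2 (-1.16, adjusted p = 0.0773).

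The mitochondrial ribosomal proteins, which make up a separate ribosome, lay mostly above the controls with galacturonic acid. Of 67 genes tested, 66 had a positive log2 difference between galacturonic acid and control, with a median of 0.63, and 0 passed the test. At an unadjusted p under 0.05 there were 16 of 67, against 12.5% of all genes, and 50 of 67 were higher without overlap, against 20.2% of all genes. RSM28, a protein of the small mitochondrial subunit, had the smallest adjusted p, 0.0865, with 103, 110 and 118 in controls and 283 and 252 with galacturonic acid. Between galacturonic acid and galactose 8 of 67 passed, all higher with the acid, against 13.1% of all genes (5.23% higher). Their median log2 difference was 0.37, and 0.24 without galactose array 2, beside -0.24 and -0.37 over all genes. MRPL4 had a difference of 3.19 (adjusted p = 0.0101), and passed without that array (adjusted p = 0.0352). MRPL11 had one of 2.52 (adjusted p = 0.0425), and did not (1.44, adjusted p = 0.0892). No test of the difference between the cytosolic and the mitochondrial genes was made.

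Of 12 elongation and termination factors tested, 1 changed with galacturonic acid, against 2.32% of all genes. HEF3, a paralog of the elongation factor gene YEF3, read 212, 186 and 348 in controls, 16.8 and 34.7 with galacturonic acid and 57.0 and 86.9 with galactose. It fell by 3.31 (adjusted p = 0.0120) with galacturonic acid, and by 1.77 (adjusted p = 0.0479) with galactose. The first call held in 13 of 21 alternative settings, and leaving out any 1 control or acid array ended it (highest adjusted p = 0.238), and leaving out galactose array 2 ended the other (adjusted p = 0.0912). Of 24 initiation factors 22 had positive differences with galacturonic acid, with a median of 0.25, and 0 passed.

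With galactose 3 of the 12 elongation and termination factors passed, against 9.06% of all genes. The median log2 difference of the 12 was -0.33, and 0.01 without galactose array 2, beside 0.22 and 0.32 over all genes. CAM1, a subunit of elongation factor 1B, fell by 2.98 (adjusted p = 0.0263) and by 1.87 without galactose array 2 (adjusted p = 0.0351). DOM34, a factor that frees stalled ribosomes, rose by a log2 difference of 1.85 (adjusted p = 0.0299), and without galactose array 2 the difference of 1.77 did not pass (adjusted p = 0.0901). Of the 24 initiation factors 1 passed higher and 1 lower, against 4.75% and 4.31% of all genes. The helicase gene DED1 fell by 2.78 (adjusted p = 0.0205) and GCD2, a subunit of the exchange factor eIF2B, rose by 1.33 (adjusted p = 0.0460). DED1 passed without galactose array 2 (adjusted p = 0.0407), and GCD2 did not (1.41, adjusted p = 0.0884).

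Dedicated chaperones escort new ribosomal proteins to the nucleus or to the assembling subunit. With galacturonic acid 0 of 10 passed against the controls, with a median of 0.24. With galactose all 10 had positive differences, with a median of 1.15, beside 0.22 over all genes, and 0 passed in the fit over all arrays. Without galactose array 2 the median was 1.73, beside 0.32 over all genes, and the difference of TSR2 was 1.70. Between galacturonic acid and galactose 2 of 10 passed, both lower with the acid, against 13.1% of all genes (7.91% lower). LOC1 had a log2 difference of -2.62 (adjusted p = 0.0250) and TSR2, the chaperone of Rps26, one of -1.58 (adjusted p = 0.0321). Without galactose array 2 the differences of LOC1 and TSR2 were -2.95 and -2.06. The call of TSR2 held in 11 of 21 alternative settings, with differences from -2.06 to -0.16, so its size depends on the setting. That of LOC1 held in 12 of 22, with differences from -2.99 to -2.24.

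Of factors bound to the ribosome, 0 of 5 chaperones at the tunnel and 0 of 9 others passed between galacturonic acid and control. LSO2, which binds ribosomes during starvation, read 62.9, 59.8 and 65.5 in controls, 35.4 and 44.5 with galacturonic acid and 162 and 137 with galactose. It rose with galactose by a log2 difference of 1.24 (adjusted p = 0.0456), the only 1 of these 9 to pass, against 9.06% of all genes. Without galactose array 2 the difference was 1.37. Between galacturonic acid and galactose LSO2 was again the only 1 of the 9 to pass, against 13.1% of all genes. The log2 difference was -1.90 (adjusted p = 0.0179), and -2.02 without that array.

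Over the 7 arrays, the genes outside the family whose log2 values were most like the mean of the 80 were SEC24, SWF1 and ASC1, each with Pearson's r of 0.99. SEC24 encodes a coat protein of secretory vesicles, and ASC1 a protein bound to the small subunit. ASC1 read 2833, 3661 and 3398 in controls, 3216 and 3024 with galacturonic acid and 2417 and 1083 with galactose. The lowest value of each of the 3 genes was on galactose array 2, as was that of the family's mean, which the genes with the deepest losses there pull down. The family's median shift was highest on that array, at 0.29, only 23 of the 80 genes had their own lowest value there, and 51 of 80 correlated negatively with the mean of the others, so the likeness is to the mean and not to most members.

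RPP1, the gene of RNase P and RNase MRP that shares the name pattern, read 49.4, 28.5 and 64.1 in controls, 74.7 and 21.4 with galacturonic acid and 89.7 and 27.1 with galactose. Its log2 differences from the controls were -0.17 with galacturonic acid and 0.14 with galactose. Its values spread over a like range in every group, and it passed in no comparison.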

How the data were processed

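The deposited data are the authors' linear intensity for each of 9335 probe sets on 7 one-colour Affymetrix YG98S arrays. GCOS 1.2 was used, per the submitters' processing notes, with no signal settings named there. Of the probe sets, 60 are controls, 6504 are listed for a single gene, 328 for several and 2443 for none. All 5656 single-gene symbols matched the RefSeq table. Values under 12 were set to 12 before log2 was taken, with the probe set of the highest mean used per gene, and 5220 genes above the floor on at least 2 arrays were tested with limma 3.58.1 in R 4.3.3 (lmFit, one mean per group, eBayes with trend, residual degrees of freedom 4, Benjamini-Hochberg adjustment, threshold 0.05). The scripts were tested on simulated data, with 50 genes changed at each fold. Between galacturonic acid and control 12% of 2-fold and 68% of 4-fold changes were recovered, with 0 false calls. Between galactose and control it was 30% and 70%, with 56 false calls. Between galacturonic acid and galactose it was 14% and 72%, with 23 false calls.

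The members, gene lists and tests were chosen with earlier results of these data known. The genes named are members past the threshold, the 5 highest and 5 lowest with galacturonic acid, the 4 pairs farthest apart, the stalk, ubiquitin-fusion and feedback genes, per other list up to 2 rises and 2 falls or the smallest p, and the 3 genes most like the family's mean. Genes named outside that rule were chosen after their values were seen: the non-overlapping and the lowest genes on galactose array 2, RPL21B with galactose, RPL25, RPL31B, RPS2, RPS3, MF(ALPHA)1, the activators and the genes with parting probe sets. Gene lengths are annotated spans that include introns. Replicate numbers follow deposit order and do not pair arrays. The number of arrays limits the precision. Alternatives changed the normalization, floor, filter, probe set, trend, array weights, arrays fitted, length trend and replicate block. The build is not stated in the labels or headers, so coordinates and sequences are left out.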

Additional observations from a re-analysis of the deposited data

Results flagged for a closer look

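The comparisons above do not use 59 probe sets listed for several members of the family. These cover 74 genes, the 54 without a probe set of their own and 20 that also have one. Fitted together with the single-gene probe sets, 2 of the 59 passed between galactose and control, against 10.8% of all rows fitted, and 1 of the 59 passed between galacturonic acid and galactose, against 14.7%. Between galacturonic acid and control 0 of 59 passed, with 0 at an unadjusted p under 0.05. One of the 2, listed jointly for RPL40A and RPL40B, both of which encode a fusion with ubiquitin, read 396, 532 and 485 in controls, 545 and 630 with galacturonic acid and 1267 and 1242 with galactose. Its log2 difference was 1.42 between galactose and control (adjusted p = 0.0215, limma) and -1.10 between galacturonic acid and galactose (adjusted p = 0.0472). Without galactose array 2 these were 1.44 (adjusted p = 0.0376) and -1.11 (adjusted p = 0.0631). The other 2 probe sets listed for the same pair did not pass between galactose and control, with differences of 0.42 and 0.60 (adjusted p = 0.429 and 0.243), and of -0.05 and 0.12 without galactose array 2. The other that passed, listed jointly for RPS21A and RPS21B, read 994, 738 and 510 in controls and 1688 and 1974 with galactose (1.34, adjusted p = 0.0436, and 1.23, adjusted p = 0.114, without galactose array 2), while the probe sets listed for RPS21A or RPS21B alone gave -0.45 and 0.01. Neither signal can be assigned to a single copy. On galactose array 2, 7 of the 59 lay more than 2 below the controls on the log2 scale.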

How the results depend on the processing

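The median of the 80 genes between galacturonic acid and control stayed within -0.056 to 0.069 over all alternatives, and the count past the threshold stayed at 0 except with array weights, where it was 1 (RPS7A). Between galactose and control the count was 1 with arrays scaled to the 75th percentile, with a floor of 1, with the mean of a gene's probe sets and with every probe set on its own, 2 with log2(value + 16), and 4 with the trend with gene length removed. Leaving out 1 array at a time gave 0 to 30, the 30 without galactose array 1. Between galacturonic acid and galactose the count was 0 with quantile normalization, a floor of 50, no filter on low genes, only genes at or above the median level, array weights and only the groups compared, and 2 with log2(value + 16), with either other use of the probe sets and with the length trend removed. Leaving out 1 array at a time gave 0 to 30, the 30 without galactose array 1. With the replicate block, whose numbers are deposit order and pair nothing, the counts were 0, 0 and 0, and of all genes tested 10 passed between galactose and control and 7 between galacturonic acid and galactose. The median between galactose and control was 0.31 after quantile normalization, -0.096 after scaling to the 75th percentile and -0.16 with the length trend removed, and -0.12 to 0.29 leaving out 1 array. The median between galacturonic acid and galactose, -0.11, was 0.064 after scaling to the 75th percentile, -0.26 after quantile normalization and 0.12 with the length trend removed, and -0.37 to 0.13 leaving out 1 array. Among all genes the number past the threshold also moved: 121 between galacturonic acid and control (1 to 774 over the alternatives), 473 between galactose and control (10 to 2145) and 686 between galacturonic acid and galactose (0 to 2327). The lowest of these came with the replicate block, with 1 array left out or with only the groups compared. The causes were not tested. Of 2075 alternative values of 95 named differences, 1755 kept direction and side of the threshold, 228 no longer passed, 35 newly passed, and 57 of differences past no threshold changed sign.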
